A study of Homo sapiens with 6 samples.

Results

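Annotated alternative ends inside introns were examined in a list of poly(A) 3′-sequencing peaks from IMR-32 cells, a MYCN-amplified human neuroblastoma line. A peak was included when its summit lay from 200 bp upstream to 600 bp downstream of the end of a non-canonical transcript of a protein-coding gene, within an intron of that gene's Ensembl canonical transcript and at least 1000 bp upstream of the canonical end. The rule selected 8198 of the 200023 listed peaks, here named intronic-end peaks. They fell in 4757 of 20046 protein-coding genes and around 7716 distinct annotated ends.

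The libraries came from cells given the vehicle DMSO, or 400 nM THZ531 for 2 h or 6 h, with 2 libraries in each of the 3 groups. THZ531 is a covalent inhibitor of CDK12 and CDK13, kinases that phosphorylate the RNA polymerase II tail during elongation. The authors merged the reads of all 6 libraries before finding peaks, so each peak has 1 value, with no replicate error, no depth per library and no value per treatment. No comparison of DMSO with THZ531 is therefore made here, and the intervals given cover counting error only.

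Most genes can end their RNA at more than 1 place. When cleavage and polyadenylation take place inside an intron, the transcript stops early, either by reading through a 5′ splice site so that an exon is extended into the intron, or by splicing to a terminal exon that the full-length transcript skips. The cleavage complex recognises a hexamer, most often AATAAA, a short distance upstream of the cut, and the resulting short RNA can encode a truncated protein, be unstable or be non-coding. CDK12 activity is known to favour full-length transcription of long genes over such early ends.

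The final 30 bases before a peak's 3′ edge are given here for examples of intronic ends with a poly(A) signal. Each has a peak whose 3′ edge lay within 25 bp of an annotated intronic end. Each also has AATAAA or ATTAAA in these 30 bases, so the examples do not represent all such peaks. Of the 2985 intronic-end peaks this close to an end, 77.7% had a signal hexamer in the 100 bases before the edge. AATAAA was present there in 49.7%, and began 15 to 30 bases before the edge in 36.7%. Sequences are from GRCh38, read 5′ to 3′ on the strand of the gene, and capitals mark the poly(A) signal hexamer.
ASCC3-203, chr6:100856302-100856331, minus strand: gtatAATAAAttggtgtttttcattctcat
GABPB1-202, chr15:50285882-50285911, minus strand: agccctcaataAATAAAtattgaatgaatg
GART-201, chr21:33524010-33524039, minus strand: cttgtaaaatcAATAAAgtcttagttggaa
WDR33-202, chr2:127735381-127735410, minus strand: ttcaAATAAAacttattatgtattggtttt
UNKL-202, chr16:1398306-1398335, minus strand: atcagttacAATAAAgcagctagagattcc
CDK13 in intron 9, chr7:40066849-40066878, plus strand: aaactttcagttaaAATAAAatgtttaaat
PAPOLA-225, chr14:96532225-96532254, plus strand: gaagcattaccATTAAActtttgatgattt
SNX5-217, chr20:17967689-17967718, minus strand: tgaaattcccatagccaATTAAAgattcag

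A different kind of intronic end also carried peaks. Here the A-richest 25 bases within the 50 bp downstream of the 3′ edge are given, with each A in capitals, for 3 ends that lie against a genomic run of A and for the ASCC3 end, which does not.
CDK13-219, chr7:40049188-40049212, plus strand: AAAAAAAAAAAAAAAAAAAggAAgg
PDGFRA-202, chr4:54278235-54278259, plus strand: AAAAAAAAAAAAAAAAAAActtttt
SCAF4-206, chr21:31700732-31700756, minus strand: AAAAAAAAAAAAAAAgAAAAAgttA
ASCC3-203, chr6:100856256-100856280, minus strand: AcctAtttAtAcAtccAtAAAtAtA
The CDK13, PDGFRA and SCAF4 windows held 21, 19 and 21 A, and the ASCC3 window 11.

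Peak height was expressed as reads at the summit, recovered from the deposited fold enrichment and p-value. In the settings used each position on each strand counts once, so the height reports how many start positions were seen near a site rather than how abundant the RNA was. Intronic-end peaks had a median of 12 reads (quartiles 8 to 18, highest 85). Peaks at canonical ends, of which there were 11475, had a median of 21 (14 to 30). The 109956 other intronic peaks, which lay in no end window of any annotated transcript, had a median of 10 (7 to 14). Intronic-end peaks were thus closer in height to the other intronic peaks than to canonical ends, with quartile ranges that overlapped those of both.

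The annotated transcripts behind these peaks were of several kinds. By splicing pattern, 3944 peaks (48.1%, 95% Wilson interval 47.0 to 49.2) were nearest to the end of a canonical exon extended into the intron and 2287 (27.9%, 26.9 to 28.9) to a spliced terminal exon. A further 37 lay at single-exon transcripts within an intron. For 1930 peaks the summit was intronic while the annotated end itself was not inside a canonical intron. By biotype, 2961 were assigned to protein_coding transcripts, 2707 to retained_intron, 2008 to transcripts with no defined coding sequence and 497 to nonsense-mediated decay substrates. Of the 3944 extended exons, 2225 belonged to retained_intron transcripts, whereas 979 of the 2287 spliced terminal exons belonged to protein_coding transcripts. In 919 cases (11.2%) the nearest model carried the tag for an incomplete 3′ end, which marks where the supporting cDNA stopped and not a known cleavage site.

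The peak list gives no strand, and each peak was read in the direction of its gene. Genes of both strands covered 730 summits (8.90%), and 283 (3.45%) also lay in the end window of another gene. The remaining 7312 peaks met neither condition, and their hexamer share (68.0%) was close to that of all intronic-end peaks (67.8%).

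Peaks gathered at the annotated ends. In this protocol a read starts at the cleavage site, so the 3′ edge of a peak marks the cut. Of the intronic-end peaks, 2985 (36.4%, 35.4 to 37.5) had the 3′ edge within 25 bp of the annotated end, and these are named matched peaks below. They lay in 2325 genes. The share depends on the width of the window, since 64.5% of the 4415 peaks within 100 bp either side of an end were matched. The most frequent distance was 0 bp, and 1620 peaks (19.8%) were within 5 bp. A span of 51 bp is 6.38% of the 800-bp window. At canonical ends the matched share was 70.0% (69.2 to 70.8). The share of intronic-end peaks minus that of canonical-end peaks was -33.6 percentage points (Newcombe 95% interval -34.9 to -32.2). Of the 1930 intronic-end peaks whose assigned end lay outside the canonical introns, 16.4% were matched. With only ends inside the same canonical intron as the summit, the matched share was 42.9%.

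The concentration was narrow. Counting pairs of a summit and an annotated end by their distance, 4513 pairs had the summit from 100 to 0 bp upstream of the end. Between 1000 bp upstream and 1400 bp downstream, every other 100-bp bin held 827 to 1098 pairs. The window of the rule falls on this flat part: 972 pairs lay from 500 to 600 bp downstream, just inside it, and 976 from 600 to 700 bp, just outside. On the upstream side 899 pairs lay just inside and 827 just outside. The 5213 peaks that were not matched therefore include intronic peaks that were near an annotated end by position alone, and the rule does not separate them from cleavage sites that are not annotated.

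**Figure D1:**
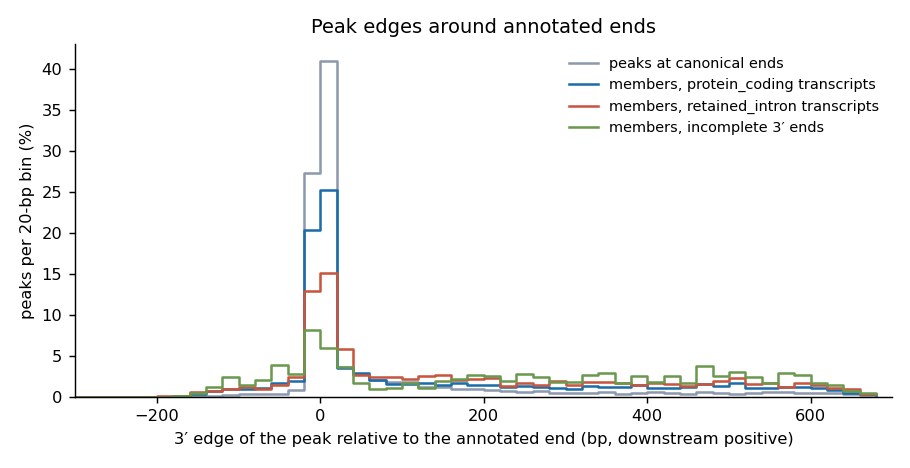
Share of peaks in each 20-bp bin of the distance from the annotated end to the peak's 3′ edge, in bp with downstream positive, for canonical ends and for intronic-end peaks by type of transcript. All groups are highest in the bins on either side of 0 bp. The matched share was 70.0% at canonical ends, 47.8% at protein_coding transcripts, 31.2% at retained_intron transcripts and 16.9% at incomplete 3′ ends. Most peaks at incomplete 3′ ends had that end outside the canonical introns.

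The matched share differed between transcript models. At protein_coding transcripts 47.8% of the peaks were matched, at retained_intron transcripts 31.2%, a difference of 16.6 percentage points (14.1 to 19.1). Where models had ends equally near to the edge, complete models and then protein_coding ones were preferred, so shared ends count as protein_coding. The assigned end lay outside the canonical introns for 794 protein_coding and 306 retained_intron peaks. Models with a complete 3′ end were matched in 38.9% of cases and those with an incomplete end in 16.9%, a difference of 22.01 points (19.2 to 24.6). Of the 919 peaks at incomplete ends, 806 had that end outside the canonical introns, whereas the rule places every summit inside one. The tag and the position of the end therefore cannot be told apart in this difference. Spliced terminal exons (44.3%) and extended canonical exons (41.5%) were closer, with a difference of 2.88 points (0.335 to 5.43).

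Poly(A) signals were sought among 12 hexamers, in the 100 bases that end at the 3′ edge. These were AATAAA or ATTAAA or AGTAAA or TATAAA or AATATA or AATACA or CATAAA or GATAAA or AATGAA or ACTAAA or AAGAAA or AATAGA. Several of these overlap each other in A-rich sequence. Any of them was present at 67.8% (66.8 to 68.8) of intronic-end peaks and AATAAA at 36.5% (35.5 to 37.6). At canonical ends the shares were 87.4% and 62.1%, and at other intronic peaks 54.8% and 23.7%. The same 100 bases read on the opposite strand held a hexamer at 49.3% of intronic-end peaks, 59.9% of canonical ends and 36.2% of other intronic peaks, and AATAAA at 13.4%, 17.5% and 8.70%. For any hexamer, intronic-end peaks exceeded other intronic peaks by 13.0 points (11.9 to 14.0) on the strand of the gene and by 13.1 points (11.97 to 14.2) on the opposite strand, so this difference was not particular to the strand of the gene. For AATAAA, the share at intronic-end peaks minus that at canonical ends was -25.6 points (-26.9 to -24.2), and minus that at other intronic peaks 12.8 points (11.7 to 13.9). On the opposite strand the latter difference was 4.69 points (3.95 to 5.46).

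Matched peaks carried more signals than the rest. AATAAA preceded 49.7% (47.9 to 51.5) of matched peaks and 29.0% (27.8 to 30.2) of those farther from an annotated end, a difference of 20.7 points (18.5 to 22.9). On the opposite strand the difference was 0.0634 points (-1.45 to 1.62). Peaks that were not matched differed from the other intronic peaks by 5.24 points (4.001 to 6.51), next to 4.67 points (3.75 to 5.63) on the opposite strand, so little of this difference was particular to the strand of the gene. The hexamer also had a preferred place. In matched peaks the most downstream AATAAA began most often 22 bases before the 3′ edge, as at matched canonical ends, and began 15 to 30 bases before it in 36.7% of matched peaks, in 57.2% of matched canonical-end peaks, in 16.8% of peaks that were not matched and in 11.5% of other intronic peaks. The last 2 groups had their most frequent position at 21 bases, with 1.69% and 1.09% of peaks there.

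**Figure D2:**
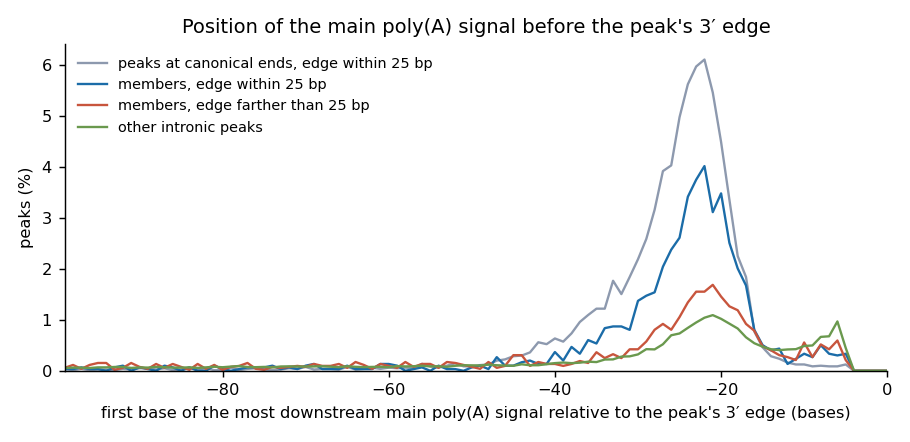
Position of the most downstream AATAAA, the main poly(A) signal, in the 100 bases before the peak's 3′ edge, as the percent of peaks in each group with it starting at each base. Matched intronic-end peaks and matched canonical ends both reach their maximum at 22 bases before the edge, at 4.02% and 6.11% of peaks.

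Genomic A stretches divided the peaks along the same lines as the biotypes. At least 18 A in 25 bases, within 50 bp downstream of the 3′ edge, were found at 17.5% (16.7 to 18.3) of intronic-end peaks, at 1.81% of canonical ends and at 28.9% of other intronic peaks. Under the A limit of the study's own filter, 22 A in 25, the shares were 3.64%, 0.488% and 6.20%. That filter removed a peak only when it also lacked a signal hexamer, a condition not applied to these shares. Among matched peaks the share with 18 A was 5.30% (4.25 to 6.59) at protein_coding transcripts and 40.5% (37.3 to 43.9) at retained_intron transcripts, with a difference of -35.2 points (-38.7 to -31.7). The AATAAA shares of these groups ran the other way, 63.3% and 28.1%. Matched spliced terminal exons had an 18 A stretch in 8.38% and matched extended exons in 24.8%. Whether priming on genomic A contributed to these peaks, or to the cDNAs behind the retained_intron models, was not tested.

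Seen from the annotation, most intronic ends had no peak. The annotation holds 29792 distinct ends in canonical introns at least 1000 bp upstream of the canonical end, and 3214 of them (10.8%, 10.4 to 11.1) had a peak's 3′ edge within 25 bp. Of these ends, 19680 belonged to genes with a peak at the canonical end, which shows that the gene was measured, and 2474 of those (12.6%, 12.1 to 13.0) had a peak. At a point 500 bp farther downstream in the same intron, the share was 1.54% (1.36 to 1.74). In genes with no canonical-end peak the share at the end was 7.32% (6.83 to 7.84).

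The hexamer in the last 40 bases of the annotated transcript separated ends with and without a peak most clearly. In genes with a canonical-end peak, 42.2% (40.4 to 43.96) of the 2941 ends with AATAAA had a peak, 17.8% (16.6 to 19.1) of the 3539 with another hexamer, and 4.57% (4.23 to 4.94) of the 13200 with none. The difference between AATAAA and none was 37.6 points (35.8 to 39.4). Over all these ends, spliced terminal exons had a peak in 15.1% of cases and extended exons in 11.3%, a difference of 3.79 points (2.76 to 4.84). AATAAA stood in the last 40 bases of 22.3% and 11.5% of them. Among complete ends with AATAAA, spliced terminal exons and extended exons had a peak in 42.6% and 41.9% of cases, with a difference of 0.630 points whose interval ran from -2.97 to 4.23. Among complete ends with no hexamer the shares were 3.88% (3.28 to 4.57) and 5.05% (4.62 to 5.52).

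The shares also differed by biotype. Of protein_coding ends 25.9% (24.7 to 27.2) had a peak, of nonsense-mediated decay ends 11.6% (9.68 to 13.9), of ends with no defined coding sequence 9.09% (8.30 to 9.94) and of retained_intron ends 7.69% (7.17 to 8.25). With complete 3′ ends, AATAAA and fewer than 18 A downstream, the shares were 48.4% of 1559 protein_coding ends and 30.9% of 583 retained_intron ends, a difference of 17.6 points (13.0 to 21.9). An 18 A stretch after the annotated end was present at 646 retained_intron ends, of which 34.2% had a peak, against 5.72% of the 8700 without one. The difference was 28.5 points (24.9 to 32.3). Protein_coding ends differed in the same direction. Of the 131 with an 18 A stretch 45.0% had a peak, against 25.4% of the 4523 without one, a difference of 19.7 points (11.3 to 28.3). Of incomplete 3′ ends, 3.90% (2.76 to 5.48) had a peak.

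**Figure D3:**
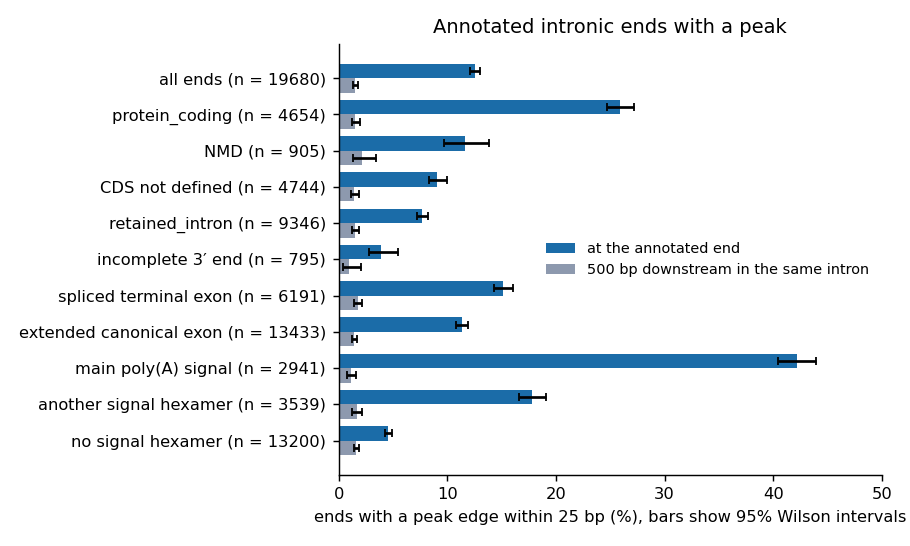
Percent of annotated intronic ends with a peak's 3′ edge within 25 bp, in genes with a canonical-end peak, by biotype, splicing pattern and hexamer in the last 40 bases, with the same span taken 500 bp downstream in the same intron for comparison. Bars start at 0 and whiskers are 95% Wilson intervals; ends with AATAAA, the main poly(A) signal, reach 42.2%, ends with no hexamer 4.57%, and the downstream spans stay between 0.938% and 2.14%.

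Intronic-end peaks were rare in the first intron. It held 533 of them (6.50%, 5.99 to 7.06), against 29.9% of other intronic peaks, a difference of -23.4 points (-23.98 to -22.8). The annotation has the same property: 5.23% of the annotated intronic ends in genes with a canonical-end peak lay in the first intron, and 13.7% (11.7 to 15.9) of those had a peak, compared with 9.46%, 10.1% and 11.7% in introns 2, 3 and 4 and 13.7% from intron 5 on. The low count in the first intron thus goes with few annotated ends there, and per annotated end the first intron had no smaller share. The last intron held 10.3% of intronic-end peaks and 6.10% of other intronic peaks.

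When each gene was divided into 10 equal parts from start to canonical end, the share of intronic-end peaks rose from 7.45% in part 1 to 13.0% in part 9 and was 8.71% in part 10. The share of other intronic peaks fell from 15.1% to 8.47% over the first 9 parts and was 5.28% in part 10. For intronic-end peaks the rule leaves out the final 1000 bp. Peaks of extended exons lay a median of 538 bp past the 5′ splice site, in introns with a median length of 3768 bp. Those of spliced terminal exons lay 2862 bp into introns of 12322 bp. The first of these distances follows in part from how an extended exon is defined.

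**Figure D4:**
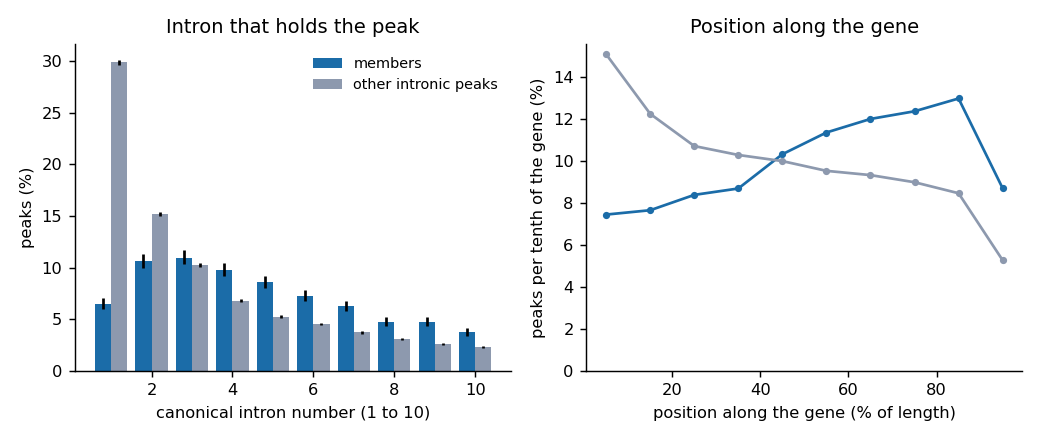
Left, percent of intronic-end peaks and of other intronic peaks in each canonical intron from 1 to 10, with 95% Wilson intervals. Right, percent of peaks in each of 10 equal parts of the gene from start to canonical end; intronic-end peaks rise to 13.0% in part 9 and drop to 8.71% in part 10, while other intronic peaks fall from 15.1% to 5.28%.

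Most genes had a single intronic-end peak, 2815 of 4757, while 1130 had 2 and 812 had 3 or more. Genes with such a peak had a median length of 63.7 kb, against 34.0 kb for all 10735 protein-coding genes with a canonical-end peak. MYT1L, a zinc-finger transcription factor of neurons, had the most, 13 peaks of 4 to 16 reads over a gene of 542552 bp, of which 4 were matched. VPS53, a subunit of the GARP tethering complex, had 11 with 6 matched. ARID1B, a subunit of the BAF chromatin remodelling complex, MSI2, an RNA-binding protein, and PLEKHA5 had 10 each, with 6, 5 and 3 matched. In these 5 genes 24 of 54 peaks were matched, 39 had a hexamer and 10 had an 18 A stretch.

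The tallest peaks with a hexamer and genes on 1 strand only had 54 to 78 reads, and 5 of these 15 were matched. The highest were a pair in the first intron of SMAD6, which encodes an inhibitory SMAD of BMP signalling. They had 78 and 74 reads, with 3′ edges 658 and 278 bp past the end of a transcript with no defined coding sequence, and the canonical end had 15. A DQX1 peak of 70 reads had its edge 410 bp past an incomplete end. The RAD51C peak, in intron 2 of the homologous recombination gene, had 66 reads, 96 bp past the end of a protein_coding transcript of 135 residues. TFDP1, the DP1 partner of E2F factors, had a peak of 65 reads that was nearest to a spliced terminal exon but not matched, with 47 at the canonical end.

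Some of the 5 matched peaks of that group lay at annotated short forms. DNAJB6, a chaperone of the HSP40 family, had 58 reads with the edge 1 bp upstream of the end of DNAJB6-204, whose protein has 241 residues against 326 for the canonical form, and 26 reads at the canonical end. RBM4, a splicing regulator, had 54 reads, 2 bp upstream of the end of a form of 177 residues against 364. PHF10, a BAF subunit, had 56 reads at 11 bp past the end of a form of 377 residues against 498. The edges at NAP1L1 (54 reads) and SRRM1 (55 reads) also matched, but both models end outside the canonical introns, the NAP1L1 end is tagged incomplete, and the most A-rich 25 bases downstream held 15 and 17 A.

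For matched peaks at complete protein_coding transcripts with an annotated stop codon, the coding length could be read from the annotation. Of 1289 such transcripts in 1125 genes, 1259 (97.7%) had the stop codon in the last exon. Their coding length was a median of 35.7% of the canonical coding length (quartiles 17.0 to 64.3%), and 817 (63.4%) retained less than 50%. In 113 the coding length was at least 90% of the canonical one, so the alternative end removed little.

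Genes described elsewhere as having an intronic poly(A) site were represented by 24 peaks in 12 of the 15 that are annotated as protein-coding, and 7 of these genes had a matched peak. Over all 10472 genes with an intron and a canonical-end peak, 34.8% (33.9 to 35.7) had an intronic-end peak and 16.9% (16.2 to 17.6) a matched one. The 15 were chosen for known intronic ends, and 14 had an annotated one, against 6655 of the 10472. Their median length was 80.0 kb against 35.5 kb, and 11 had a canonical-end peak. A higher share among the 15 was thus built into their choice. FLT1, KDR and CALCA had neither an intronic-end peak nor a canonical-end peak. FLT1 and KDR are receptors of vascular endothelial growth factor and CALCA encodes calcitonin. ASCC3, a helicase of the ASC-1 complex, had 53 reads 1 bp past the end of ASCC3-203, a spliced terminal exon in intron 3 of 41 that encodes 111 of 2202 residues, and 12 reads at its canonical end. GART, an enzyme of purine synthesis, had 15 reads 1 bp upstream of the end of GART-201, whose protein has 433 of 1010 residues, against 49 at the canonical end. MAGI3, a scaffold protein, had 39 reads 1 bp upstream of an end in its first intron and 48 at the canonical end. GABPB1 had 14 reads at 0 bp from the end of GABPB1-202 (348 of 383 residues) and 10 at the canonical end. DICER1, the microRNA-processing nuclease, had matched peaks of 19 and 13 reads, in introns 3 and 23. The EGFR peaks were low, with 6 reads each against 24 at the canonical end, and neither was matched. FOXN3 and ERCC6 had peaks of 7 to 10 reads, none of them matched. PDGFRA had peaks of 19, 11 and 19 reads, and the edges of the first and the second matched. The one in intron 14 stood against the run of A shown above.

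The cleavage and polyadenylation machinery itself had intronic-end peaks in 12 of its 23 genes, of which 7 had a matched peak. These shares were 52.2% (33.0 to 70.8) and 30.4% (15.6 to 50.9). Their wide intervals include the 34.8% and 16.9% of genes with an intron and a canonical-end peak, a condition not set for the 23. Of the 23, 20 had a canonical-end peak, and 11 of those 20 had an intronic-end peak. RBBP6, which activates cleavage, had a peak of 26 reads 112 bp past RBBP6-204, the form of 118 residues against 1792, and one of 33 reads 3 bp past RBBP6-206, against 19 at the canonical end. WDR33, the subunit that binds AATAAA, had 28 reads 7 bp past WDR33-202 (257 of 1336 residues) and 19 reads 39 bp past WDR33-204, both in intron 7, against 32 at the canonical end. CSTF3, a scaffold subunit of the cleavage stimulation factor, had 25 and 16 reads in intron 3, with edges 35 and 67 bp past its short forms of 44 and 103 residues. PAPOLA, the poly(A) polymerase, had 4 peaks of 11 to 26 reads, 3 of them matched. PCF11, a termination factor, had 57 reads in its first intron, 75 bp past a model of unresolved type, against 24. SYMPK and SCAF4 each had 2 peaks of 8 to 12 reads against 41 and 18 at their canonical ends. No intronic-end peak was listed for CPSF1, CPSF3, CPSF4, CPSF6, CPSF7, CSTF2, PAPOLG, XRN2, PABPN1 or the intron-poor CLP1 and CSTF2T. Of these, CPSF3, CSTF2, PAPOLG, XRN2, CLP1 and CSTF2T have no annotated end inside a canonical intron at least 1000 bp upstream of the canonical end, and CPSF6 and PABPN1 had no canonical-end peak.

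The targets of THZ531 and their cyclin had 5 such peaks. CDK12 and CDK13 had no canonical-end peak. CDK13 had a matched peak of 13 reads at the spliced terminal exon in intron 9, with AATAAA, and a matched one of 14 reads at the retained_intron model CDK13-219 in intron 7, with no hexamer and 21 A in 25 downstream bases. Its other peak, 9 reads in intron 3, had no hexamer and its edge 648 bp past the end of an extended exon. The single CDK12 peak, 9 reads in the last intron, had its edge 782 bp past an incomplete end and no hexamer. Cyclin K (CCNK) had 18 reads 1 bp upstream of an incomplete end and 15 reads at the canonical end.

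Within genes, the intronic end was usually the lower peak in the pooled reads. In 3645 genes with both, the tallest intronic-end peak exceeded the tallest canonical-end peak in 872 (23.9%, 22.6 to 25.3), equalled it in 131 and was lower in 2642. The median ratio was 0.667 (quartiles 0.440 to 1.00). With matched peaks alone the share was 23.03% (21.1 to 25.1) of 1767 genes. Since height saturates, these ratios do not give the fraction of transcripts that ended early. They also pool DMSO and THZ531 libraries, so they describe neither treatment alone.

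The 8 genes with the highest ratio, among those with at least 10 reads at the canonical end, had intronic-end peaks of 39 to 78 reads. Of these 8 peaks only 2 were matched, and those of SMAD6 and RAD51C were not. Besides SMAD6, RAD51C and ASCC3 they included ENDOV, TSNARE1, TVP23A and ZNF493. TVP23A had genes on both strands at the summit. At the other extreme, BRD3, CHCHD6, IGSF3, POLR3B, PPP6R3, SLC66A2, TARBP1 and UNKL had 3 to 7 reads against 27 to 64 at the canonical end. UNKL was the only matched peak among these 8, with 6 reads, AATAAA in the sequence shown above and 64 reads at the canonical end.

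**Figure D5:**
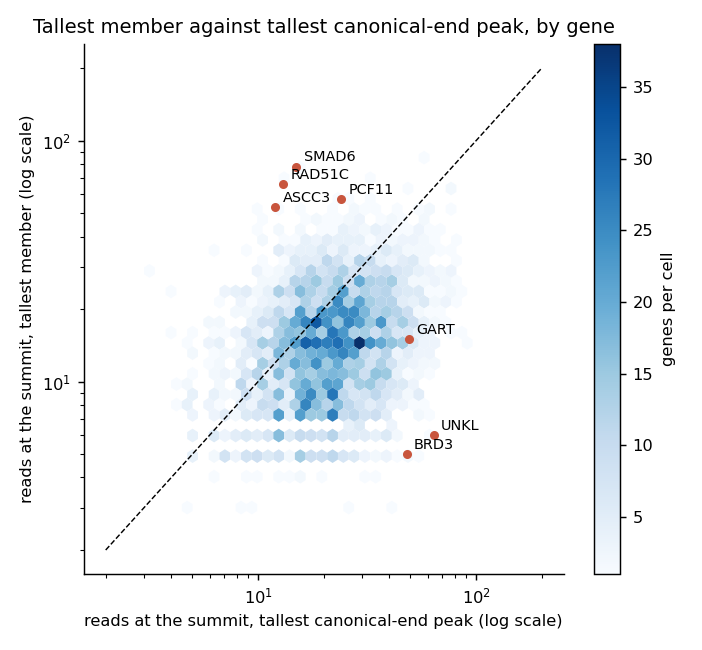
Reads at the summit of the tallest intronic-end peak against the tallest canonical-end peak in 3645 genes, both on log scales, with darker cells holding more genes and the dashed line marking equal height. Most genes lie under the line, and 872 lie above it, among them SMAD6 (78 against 15), RAD51C (66 against 13) and ASCC3 (53 against 12). The SMAD6 and RAD51C peaks were not matched to an annotated end.

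DNA damage response (DDR) genes, the class the study was concerned with, were taken from its own list, of which 146 matched a protein-coding gene. Of these, 68 had an intronic-end peak and 32 a matched one. Among the 111 with a canonical-end peak the counts were 52 (46.8%, 37.8 to 56.1) and 24 (21.6%, 14.98 to 30.2), next to 34.8% and 16.9% over all such genes. Gene length moved with these counts. In the 4 quartiles of length over all genes, from short to long, matched peaks were present in 3.55%, 10.4%, 20.5% and 33.0% of genes, and in 0 of 19, 5 of 27, 11 of 36 and 8 of 29 DDR genes. The DDR shares were thus 18.5% and 30.6% in the second and the third quartile, above those of all genes, and 27.6% in the longest, below it. They rest on few genes and have no intervals, so these differences may be within counting error. For any intronic-end peak the DDR shares were 10.5%, 44.4%, 61.1% and 55.2%, next to 13.1%, 28.0%, 42.9% and 55.3% of all genes. An annotated intronic end was present in 88 of the 111 DDR genes and in 6655 of all 10472 genes. By quartile it was present in 57.9%, 77.8%, 86.1% and 86.2% of DDR genes, next to 43.3%, 62.8%, 69.4% and 78.8% of all genes. The part of length and annotation in the DDR counts was not tested.

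Named DDR genes covered several repair pathways. FANCA, of the Fanconi anaemia core complex, had 41 reads at 0 bp from a spliced terminal exon in intron 10 of 42, with AATAAA, and 28 at the canonical end. DDB2, which recognises UV damage, had 39 reads 6 bp past an extended exon in intron 3. CUL4A and DMC1 had 28 reads each, both matched. GTF2H2, whose near-identical copies share reads placed at several positions, had a matched peak of 35 reads. The PARP1 peak of 34 reads matched a model that ends outside the canonical introns, with 17 A in 25 downstream bases. RFC4 had 32 reads and no hexamer, 684 bp past its nearest end, and XRCC3 had 27 reads where genes of both strands overlap.

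The study also listed genes with premature cleavage and polyadenylation (PCPA) under THZ531, chosen on its own nascent RNA, so that list is not independent of the treatment pooled here. Of 803 matched genes, 382 (47.6%, 44.1 to 51.0) had an intronic-end peak and 212 (26.4%, 23.5 to 29.6) a matched one. With a canonical-end peak required, 166 of 631 (26.3%, 23.02 to 29.9) had a matched peak. By quartile of length the matched shares were 4.76%, 15.2%, 23.4% and 40.3%, next to the 3.55%, 10.4%, 20.5% and 33.0% of all genes. The tallest intronic-end peak exceeded the canonical-end peak in 99 of 300 PCPA genes (33.0%, 27.9 to 38.5) and in 10 of 52 DDR genes (19.2%, 10.8 to 31.9), next to 872 of 3645 over all genes (23.9%). The 10 tallest in the PCPA list had 45 to 78 reads and included SMAD6, RAD51C, U2SURP, PCF11, RBM4, LATS1, WDR26, LCORL and SNX5. LCORL-202 and SNX5-217 were matched at 2 and 1 bp upstream. LATS1, a kinase of the Hippo pathway, had 48 reads 68 bp past LATS1-202 (690 of 1130 residues) against 19 at the canonical end.

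The cell line's identity was checked at canonical ends. Of 10 sympathoadrenal and neuroblastoma markers 9 had a peak there, with 19 to 76 reads, among them HAND2, DBH and TH, and MYCN had none in the window of its canonical end.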

How the data were processed

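Reads from QuantSeq REV libraries were trimmed, aligned by the authors to GRCh38 with STAR 2.5.1b (up to 20 placements per read) and merged over all 6 libraries before peaks were called with MACS2 2.1.1 (100-bp extension). The deposited list gives, per peak, a fold enrichment over background and −log10 p-values and q-values. From fold = (k + 1)/(λ + 1) and the Poisson tail, the reads k at the summit were recovered (largest misfit in −log10 p 0.000172), a step that was tested on simulated data. The 413 peaks on other sequences were left out. Annotation was Gencode 44, whereas the study used Gencode 27. Shares have Wilson and differences Newcombe 95% intervals (scipy). No test between treatments was possible. The genes named in the text followed a rule: genes described with intronic poly(A) sites, cleavage factors, CDK12, CDK13 and CCNK, the 15 tallest peaks with a hexamer, the 5 genes with the most peaks, the 10 tallest of each study list, and the 8 highest and lowest ratios. Some genes that met the rule are not reported here. Of the study's 162 DDR and 809 PCPA entries, 146 and 803 were matched. The members and lists were chosen with earlier results of these data known.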

Additional observations from a re-analysis of the deposited data

How the results depend on the processing

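Of 93 recomputed values, 43 stayed within the main interval (or within 1.5 times, for counts) and 50 moved. All values under the 1-strand restriction and under merging of peaks closer than 200 bp were among the 43. Peaks reaching 5 on the −log10 q scale had a median of 14 reads, any hexamer 70.6%, AATAAA 39.3%, 18 A 16.6%, matched 39.1% and taller than the canonical end 25.5% of genes. At 20 or more there were 557 peaks in 516 genes, with a median of 28 reads, any hexamer 83.8%, AATAAA 52.6%, 18 A 6.82%, matched 45.2%, the first intron 7.18%, spliced terminal exons 34.6% and taller 34.1%. A window of 100 bp either side left 4415 peaks in 3167 genes, with a median of 13, any hexamer 73.8%, AATAAA 44.2%, 18 A 16.2%, matched 64.5% and spliced 32.8%. With protein_coding transcripts alone there were 3298 peaks in 2412 genes, with a median of 13, any hexamer 76.4%, AATAAA 44.9%, 18 A 10.6%, matched 44.3%, the first intron 4.37% and spliced 31.0%. Without incomplete ends AATAAA was 37.6%, matched 38.3% and spliced 30.6%. With ends inside the same canonical intron as the summit, any hexamer was 69.9%, AATAAA 40.4%, 18 A 19.1%, matched 42.9%, the first intron 7.74% and spliced 36.9%. Without peaks at 18 A stretches the median was 13, any hexamer 75.6%, AATAAA 42.3% and spliced 29.7%. Searching the 100 bp that end at the summit gave 39.2% and 8.73% for any hexamer and AATAAA. A limit of 22 A gave 3.64%, and a match within 10 bp 26.3%. The cause was not tested.

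No paired analysis was possible because the reads of all 6 libraries were merged before peaks were called, so no library was left out either. Peaks without strand, heights that count each position once, and the use of a later annotation than the study's limit the counts. Peaks share genes and libraries, so the intervals are narrower than replicate error would be.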
